A study of Mus musculus with 2 samples.

Results

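The genes described here are 10 genes of CD8 T cells that encode S100 proteins (S100a4, S100a6, S100a10, S100a11), annexins (Anxa1, Anxa2), galectins (Lgals1, Lgals3), vimentin (Vim) and the scaffold protein AHNAK (Ahnak). They were chosen by symbol from the 32285 genes of the count matrices, and each of the 10 symbols matched 1 row. A parous library, from multiparous mice, was compared with a virgin library. Both groups were untreated C57BL/6 mice, and the age of the mice was not given in the sources used here. Live cells carrying CD45, the beta chain of the T cell receptor and CD8a were sorted from the 4th mammary fat pad, without culture, and sequenced from the 5' end of the RNA. Each group was 1 library of cells pooled from at least 5 mice. No difference therefore has a replicate check and no test between groups was made. Values in parentheses after a level, share or ratio are exact 95% intervals that cover counting error only and treat each UMI (unique molecular identifier, standing for 1 captured RNA molecule) as independent.

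S100 proteins are small calcium-binding proteins that act by binding other proteins, and annexins bind membrane phospholipids in the presence of calcium. S100A10 and annexin A2 form a complex at the plasma membrane, which AHNAK also binds, and S100A11 is a partner of annexin A1. Galectins bind sugar chains of glycoproteins and vimentin forms intermediate filaments. In T cells, RNA for many of these genes is low in naive cells and high in effector and memory cells.

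The cell filter kept 3019 of 4927 parous and 2511 of 2526 virgin barcodes, and 14 of the kept barcodes occurred in both libraries. Clusters of CD8 T cells held 2989 parous cells, at a median of 4109 UMIs, and 2499 virgin cells, at a median of 6998 UMIs. Without matching this depth, a Cd3e UMI was in 95.3% of the parous cells and 98.6% of the virgin cells. Cd8b1 was found in 80.1% and 95.4%, and Cd4 in 0.368% and 0.08%, again at unequal depth. The clusters were made without the 10 genes and without the rest of their families, and were named from markers. They were rebuilt for this purpose, so a difference from the study's own naming is possible. Levels are UMIs of a gene scaled to 1000000 UMIs of the same cells (CPM). Where the share of cells with a UMI of the 10 genes is given, each cell was thinned to 1400 UMIs unless stated otherwise. This left 2865 parous and 2485 virgin cells. The 10 genes made up 0.625% of all parous UMIs and 0.721% of all virgin UMIs.

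The 4 S100 genes lie on chromosome 3 (GRCm38 coordinates, GENCODE annotation). S100a4 (chr3:90603771-90606045) and S100a6 (chr3:90612882-90624181), both on the plus strand, are 6836 bases apart. S100a11 (chr3:93520488-93526287) and S100a10 (chr3:93555080-93564643), also on the plus strand, are 28792 bases apart. S100a5 lies between S100a4 and S100a6 and S100a8 and S100a9 lie beyond S100a6. S100a5 had 1 UMI in parous and 2 UMIs in virgin CD8 T cells, and S100a8 and S100a9 had 0 UMIs in both. The other genes are single: Anxa2 at chr9:69453620-69491795, Lgals3 at chr14:47367751-47386160, Lgals1 at chr15:78926725-78930465, Vim at chr2:13573927-13582826, Ahnak at chr19:8989284-9076914 and Anxa1, on the minus strand, at chr19:20373428-20390944.

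Sequence before the RefSeq start site was at hand for 8 of the 10 genes (RefSeq, GRCm38.p6), and none is shown for S100a10 and Lgals1. The 250 bases before the start were searched on both strands for motifs that promoters often hold. TATAAA, the letters searched for a TATA box, was in 4 of the 8 windows (S100a4, Anxa1, Anxa2 and Vim) and in 12.4% of 32841 such windows in the genome. For an AP-1 site the search was for TGANTCA, found in 2 of the 8 windows (S100a11 and Anxa2) and in 6.75% of all windows. For a GC box the search was for GGGCGG, found in 4 of the 8 windows (S100a11, Anxa2, Lgals3 and Ahnak) and in 32.7% of all windows. No 2 matches of different motifs shared a base in these 8 windows. A match is a run of letters and not a shown binding site. GENCODE starts several of these genes further upstream, so 6 of the 8 windows hold bases of an annotated exon of their gene. The windows of Anxa1 and Vim, both with TATAAA, lie wholly in such an exon (all 250 bases). The overlap was 63 bases for Anxa2, 12 for S100a6 and none for S100a4. The windows of S100a4 and S100a6 follow, 5' to 3' on the gene's strand with matches in capitals. They are shown because these neighbours on chromosome 3 had the most alike levels across clusters, and of the pair only the S100a4 window holds a match.
S100a4, chr3:90603520-90603769, plus strand: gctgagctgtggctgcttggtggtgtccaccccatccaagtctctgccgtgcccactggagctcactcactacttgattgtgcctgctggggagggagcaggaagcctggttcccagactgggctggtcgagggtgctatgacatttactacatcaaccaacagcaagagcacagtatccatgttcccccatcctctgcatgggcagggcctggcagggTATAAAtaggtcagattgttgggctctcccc
S100a6, chr3:90612644-90612893, plus strand: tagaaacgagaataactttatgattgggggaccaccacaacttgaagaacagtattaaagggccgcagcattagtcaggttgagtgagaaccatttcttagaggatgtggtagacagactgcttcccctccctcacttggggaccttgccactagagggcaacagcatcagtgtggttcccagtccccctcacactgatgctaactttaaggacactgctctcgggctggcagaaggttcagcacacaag

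Over all CD8 T cells, the levels of most of the 10 genes were within 1.5-fold of each other in the 2 libraries, with Anxa1 as the exception. S100a6, an S100 protein that binds annexins and calcyclin-binding protein, was at 1734 CPM (1712 to 1756) in the parous library and 1603 CPM (1585 to 1620.2) in the virgin library, a log2 ratio of parous over virgin of 0.11 (0.09 to 0.14). It was found in 65% of parous cells (63.2 to 66.7) and 49.7% of virgin cells (47.7 to 51.7), the widest gap in share among the 10 genes. Without thinning the S100a6 shares were 74.6% and 57.5%. S100a4, a myosin-binding S100 protein and a common marker of memory T cells, was at 610.1 CPM (597 to 623) in the parous library and 663 CPM (652 to 675) in the virgin library. It was found in 37% of parous cells (35.3 to 38.8) and 33.8% of virgin cells (31.9 to 35.7). S100a10, the annexin A2 partner, was at 826 CPM (811 to 842) in the parous library and 940.0 CPM (927 to 954) in the virgin library, and S100a11 at 576 CPM (563 to 589) in the parous library and 584 CPM (574 to 595) in the virgin library. Of the S100 genes only S100a6 had a higher level in the parous library, while S100a11 had a log2 ratio of -0.02 (-0.06 to 0.02), an interval that holds 0. At matched depth S100a11 was found in 51.2% of parous cells (49.4 to 53.1) and 45.7% of virgin cells (43.7 to 47.7) and S100a10 in 61.7% of parous cells (59.9 to 63.5) and 60.2% of virgin cells (58.2 to 62.1), so the S100 genes were found in as many or more of the parous cells.

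Anxa1, which encodes a ligand of formyl peptide receptors, was at 18.9 CPM (16.6 to 21.4) in the parous library and 54.7 CPM (51.5 to 58) in the virgin library. That is a log2 ratio of -1.53 (-1.74 to -1.33), or 2.89-fold lower in the parous library. Anxa1 was found in 2.55% of parous cells (2 to 3.19) and 5.19% of virgin cells (4.35 to 6.14), and 5 virgin cells held 14% of the virgin Anxa1 UMIs. Without the cycling cells, or with each cell thinned to 1400 UMIs, the Anxa1 log2 ratio was -1.06 and -1.07. The receptors Fpr1 and Fpr2 had 0 UMIs in both libraries, which allows up to 0.226 CPM for parous cells and 0.151 CPM for virgin cells. Anxa2 was at 301 CPM (292 to 310.3) in the parous library and 385 CPM (376 to 393) in the virgin library, with shares of 29.6% and 28.6%. Its level was lower in the parous library by a log2 ratio of -0.35 (-0.41 to -0.30), while its shares overlapped within their intervals. That ratio was -0.08 with each cell thinned to 1400 UMIs, -0.08 as a mean of per-cell CPM and -0.03 without the cycling cells.

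Lgals1 (galectin-1) was at 991 CPM (974 to 1008) in the parous library and 1375 CPM (1358 to 1391) in the virgin library, a log2 ratio of -0.47 (-0.50 to -0.44). Lgals3 (galectin-3) was at 117 CPM (111 to 123) in the parous library and 131 CPM (126 to 136) in the virgin library, a log2 ratio of -0.16 (-0.25 to -0.07). The direction of Lgals3 was not stable: the ratio was 0.26 with each cell thinned to 1400 UMIs, 0.12 as a mean of per-cell CPM and 0.10 without the cycling cells. Vim was at 778 CPM (763 to 793) in the parous library and 1099 CPM (1085 to 1114) in the virgin library, and Ahnak at 295 CPM (286 to 304) in the parous library and 375 CPM (366 to 383) in the virgin library. The log2 ratio was -0.50 (-0.53 to -0.46) for Vim and -0.35 (-0.40 to -0.29) for Ahnak, so parous levels of both were the lower ones. At matched depth Vim was found in 51.7% of parous cells (49.8 to 53.5) and 56.8% of virgin cells (54.8 to 58.8). Lgals1 was found in 51.3% of the parous cells and 51.8% of the virgin cells, although its level was 1.39-fold lower in the parous library.

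**Figure D1:**
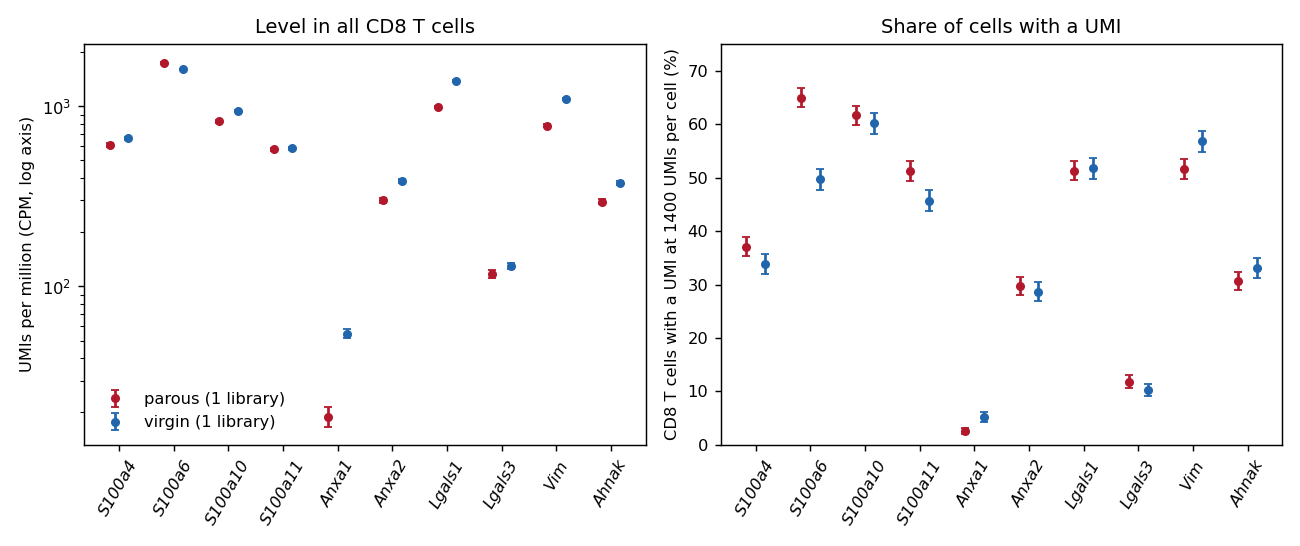
Level in CPM on a log axis (left) and share of cells with a UMI at 1400 UMIs per cell (right) for the 10 genes, with 1 point per library and bars for exact 95% intervals of counting error. Anxa1 stands at 18.9 CPM for parous cells and 54.7 CPM for virgin cells, and S100a6 in 65% of parous and 49.7% of virgin cells, while the points of most other genes lie close together.

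Counted at 1.5-fold, 0 of the 10 genes were higher in the parous library, where 8.53% of 13688 genes with at least 10 UMIs were. Anxa1 was the 1 of 10 that was at least 1.5-fold lower, where 16.8% of all genes were. The median log2 ratio of the 10 genes was -0.27, beside -0.15 over all 13688 genes. Median-of-ratios scaling raised every ratio by 0.13, and Lgals3 and S100a10 kept negative ratios of -0.03 and -0.05, while S100a4 and S100a11 then had ratios above 0 (0.01 and 0.11).

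The mix of cells differed between the libraries. Naive or central memory-like cells, marked by Ccr7, Lef1, Dapl1 and Igfbp4, were 16.3% of the parous (487 cells) and 38.4% of the virgin CD8 T cells (959 cells). Outside that class (2502 parous and 1540 virgin cells) all 10 genes had lower levels in the parous library. Lgals1 was at 1171 CPM in parous cells and 2092 CPM in virgin cells, a log2 ratio of -0.84 (-0.87 to -0.81). Vim was at 885 CPM in parous cells and 1508 CPM in virgin cells, a log2 ratio of -0.77 (-0.80 to -0.73). S100a4 was at 737 CPM in parous cells and 1036 CPM in virgin cells, a log2 ratio of -0.49 (-0.53 to -0.45). Within single clusters S100a4 was not lower throughout: of 10 clusters, its interval lay above 0 in 5 and below 0 in 3. The shares of the clusters in these cells also differed between the libraries, and these pooled levels are not weighted for that. S100a6, higher in the parous library over all cells, was lower outside the naive class, at 2091 CPM in parous cells and 2505 CPM in virgin cells with a log2 ratio of -0.26 (-0.29 to -0.24). Anxa1 was at 22.8 CPM in parous cells and 85.6 CPM in virgin cells. In these cells 5 of 10 genes (Anxa1, Anxa2, Lgals1, Vim and Ahnak) were 1.5-fold lower or more, where 18.9% of 13116 genes were, and 0 were 1.5-fold higher, where 8.11% were. The median log2 ratio was -0.60 beside -0.18 over all genes. With each cell thinned to 1400 UMIs that median was -0.49, and 4 of 10 genes were at least 1.5-fold lower, Anxa2 no longer among them. The share over all genes is not given at that depth.

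The 10 clusters with at least 20 cells in each library were also weighted to the virgin mix of clusters. Anxa1 then stood at 18.4 CPM in parous and 45.4 CPM in virgin cells, a log2 ratio of -1.30. The log2 ratio of Anxa2 was -0.48, that of Ahnak -0.42 and that of Vim -0.37. The other 6 genes lay between -0.17 (S100a6) and -0.02 (S100a4). All 10 ratios were negative and their median was -0.17. Over all genes the median in all CD8 T cells, without this weighting, was -0.15, and no all-gene median at these weights is given. At the parous mix of clusters the median was -0.33.

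In naive or central memory-like cells some of the 10 genes were nearly absent and others were present. S100a4 was at 7.79 CPM (4.62 to 12.3) in parous cells and 7.2 CPM (5.38 to 9.44) in virgin cells, and was found in 0.414% of its parous cells and 0.938% of its virgin cells at matched depth. Anxa1 had 1 UMI in the 487 parous and 3 UMIs in the 959 virgin cells. Lgals3 had 6 and 2 UMIs, a log2 ratio with 0.5 added to each count of 3.02 (0.75 to 6.57), and the virgin count is below the 3 counts taken as the floor. Anxa2 was at 14.3 and 13 CPM and S100a6 at 38.1 and 16.2 CPM in parous and virgin naive-like cells. By contrast S100a10, whose protein pairs with annexin A2, was at 359 CPM (335 to 384) in parous cells and 359 CPM (345 to 373) in virgin cells, and found in 33.7% of its parous cells and 37.4% of its virgin cells. S100a11 was at 189 and 192 CPM, Lgals1 at 139 and 114 CPM, Vim at 268 and 381 CPM and Ahnak at 54.5 and 70.9 CPM in parous and virgin naive-like cells.

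S100a6 was higher in the parous naive-like cells, at 38.1 CPM (30.6 to 46.9) in parous cells and 16.2 CPM (13.4 to 19.4) in virgin cells, a log2 ratio of 1.24 (0.82 to 1.64). It was found in 2.69% of its parous cells and 1.15% of its virgin cells at matched depth, far below the shares over all cells, and free RNA was not tested as a source. The S100a6 ratio depended on the clustering, at 0.66 at resolution 0.5 and 1.82 at resolution 1.2, where 3 clusters made up the class, with 75 parous and 696 virgin, 381 parous and 275 virgin, and 162 parous and 78 virgin cells. Vim was lower in parous naive-like cells, with a log2 ratio of -0.51 (-0.63 to -0.38), while S100a10 (0.00 (-0.11 to 0.11)) and S100a11 (-0.03 (-0.19 to 0.13)) had ratios whose intervals hold 0. Of the 8 genes with at least 10 UMIs in these cells, 1 (S100a6) was at least 1.5-fold higher, where 5.98% of genes were, and 0 were at least 1.5-fold lower, where 18.5% were.

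In the parous library S100a4 was highest in cycling cells (1809.8 CPM), then in tissue-resident memory-like cells (1631 CPM) and activated chemokine-producing cells (1088 CPM). In the virgin library it was highest in tissue-resident memory-like (1844 CPM), cycling (1655 CPM) and Gzmk or exhausted-like cells (1583 CPM). The intervals of neighbours in that order overlapped in 6 of 10 neighbouring pairs of parous clusters and in 3 of 9 pairs of virgin clusters. From the highest cluster to the naive-like cells, S100a4 spanned 232-fold among parous cells and 256-fold among virgin cells. Over the same range S100a10 spanned 4.68-fold and 5.08-fold. Lgals1 was highest in cycling cells (3246 and 3573 CPM in parous and virgin cells) and circulating effector-like cells, marked by S1pr5, Cx3cr1 and Klrg1 (3137 and 3299.8 CPM). Lgals3 was highest in circulating effector-like cells, at 318 CPM (253 to 396) in parous cells and 451 CPM (412 to 493) in virgin cells. The virgin interval of Lgals3 there overlapped that of tissue-resident memory-like cells, at 421 CPM (382 to 462). Anxa1 was highest in tissue-resident memory-like cells, at 80.4 CPM (57.5 to 109.5) in parous cells and 209 CPM (182 to 239) in virgin cells. Intervals of neighbours overlapped in 9 of 10 parous and 5 of 9 virgin pairs for Lgals3. For Anxa1 they overlapped in 10 of 10 parous and 5 of 9 virgin pairs.

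**Figure D2:**
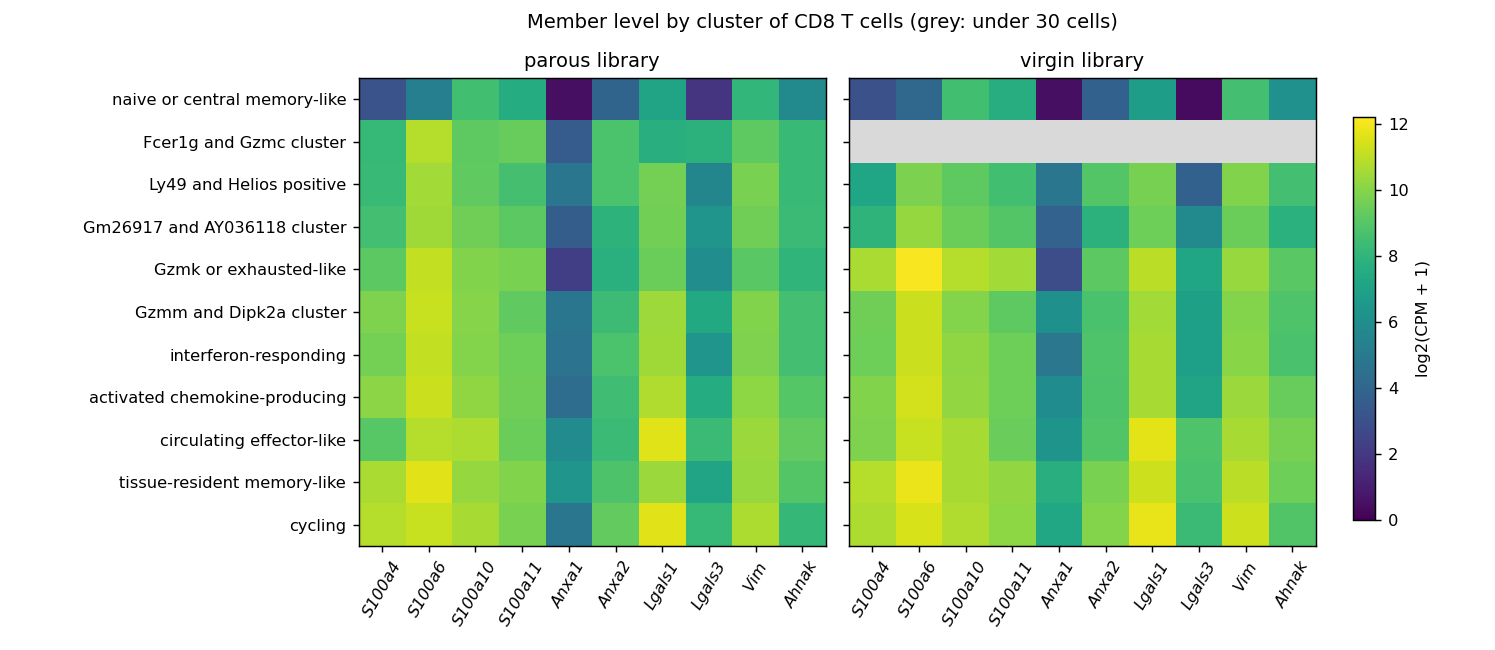
Level of the 10 genes, as log2(CPM + 1), in each cluster of CD8 T cells of the parous (left) and virgin (right) library, with clusters in order of the mean standardised level and grey for under 30 cells. S100a4, S100a6, Anxa1, Anxa2 and Lgals3 are dark in the naive or central memory-like row, where S100a10 stands at 359 and 359 CPM in parous and virgin cells.

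In the Gzmk or exhausted-like cells (484 parous and 103 virgin cells) the 10 genes had lower levels in the parous library. These cells carried Gzmk, Pdcd1, Tigit and Lag3. All 10 genes were at least 1.5-fold lower in the parous cells, where 23.6% of 9384 genes were. S100a4 was at 563 CPM (530.0 to 598) in parous cells and 1583 CPM (1487 to 1684) in virgin cells, a log2 ratio of -1.49 (-1.62 to -1.36). It was found in 35.2% of its parous cells and 76.5% of its virgin cells at matched depth. Lgals1 was at 713 CPM in parous and 1934 CPM in virgin cells, a log2 ratio of -1.44 (-1.55 to -1.33), and Anxa2 at 210.0 CPM in parous and 551 CPM in virgin cells, a log2 ratio of -1.39 (-1.60 to -1.18). S100a11 had the smallest gap, at 857 CPM in parous and 1472 CPM in virgin cells. Anxa1 was scarce in both, with 7 UMIs in parous and 4 UMIs in virgin cells, and its interval held 0. The median log2 ratio was -1.16, beside -0.16 over all genes.

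The parous and virgin cells of this class also differed in other genes. Cdh1 (E-cadherin) was at 71.4 CPM in parous and 7.82 CPM in virgin cells, Car2 (carbonic anhydrase) at 125 CPM in parous and 11 CPM in virgin cells and Itgae (CD103, which binds E-cadherin) at 151 CPM in parous and 31.3 CPM in virgin cells. Pdcd1 was at 352 CPM in parous and 230.0 CPM in virgin cells and Gzmk at 728 CPM in parous and 943 CPM in virgin cells. In the class, 256 parous and 94 virgin cells had no UMI of Cdh1, Car2 or Itgae. They were picked on unthinned counts, at class medians of 3505.5 UMIs in parous and 5401 UMIs in virgin cells. Among the picked cells the median log2 ratio of the 10 genes was -0.81 and all 10 ratios were negative. In these cells 8 of 10 genes were at least 1.5-fold lower. For this and the following alternatives of the class the share over all genes is not given. At a clustering resolution of 1.2 (345 parous and 107 virgin cells) the median was -1.10 and 8 genes were at least 1.5-fold lower. At 0.5, with 16 virgin cells, the median was -0.60 and 5 were, with S100a6 at -0.05. Anxa1 was among these 5, with a log2 ratio of -3.47 and a wide interval that holds 0 (-7.47 to 2.67). With the 10 genes kept in clustering, which left 19 virgin cells, 6 genes were at least 1.5-fold lower. Anxa1 was again among them, at -3.21 (-7.21 to 2.94). In the cells without Cdh1, Car2 or Itgae UMIs S100a4 had a log2 ratio of -1.07 (-1.22 to -0.93) and Anxa2 of -1.11 (-1.35 to -0.87). S100a11 had -0.42 (-0.55 to -0.29).

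Tissue-resident memory-like cells (142 parous and 126 virgin) also had lower levels of the 10 genes in the parous library. They met 7 markers of the tissue-resident list, among them Zfp683, Ccr8 and P2rx7. Itgae, Cd69, Xcl1, Cdh1 and Hic1 of that list did not pass the naming thresholds. Mmp9 and Cd40lg, of the neutrophil and CD4 T cell lists, were among their leading genes. Lgals3 was at 137 CPM (106 to 173) in parous cells and 421 CPM (382 to 462) in virgin cells, a log2 ratio of -1.61 (-2.01 to -1.25). Anxa1 had a log2 ratio of -1.36 (-1.90 to -0.89). Anxa2 was at 444 CPM in parous and 849 CPM in virgin cells and Lgals1 at 1333 CPM in parous and 2481 CPM in virgin cells. S100a4, at 1631 CPM in parous and 1844 CPM in virgin cells, had one of the smallest gaps, a log2 ratio of -0.18 (-0.30 to -0.06). At least 1.5-fold lower were 5 of 10 genes, where 21.8% of 8715 genes were. The macrophage or dendritic marker list summed to 36.2 CPM in parous cells and 305 CPM in virgin cells of the class. In the virgin cells this was mainly Cd74 (213 UMIs in 21 cells), Itgax (41 UMIs in 22 cells) and H2-Ab1 (33 UMIs in 13 cells), while Lyz2 had 3 UMIs and Csf1r and Clec9a were at 0. Itgax was also on the marker list of circulating effector-like cells. Without thinning, a UMI of the macrophage or dendritic list was in 7.75% of the parous cells of the class and in 35.7% of its virgin cells. Depth was unequal, at a median of 3346.5 UMIs in the parous and 6225 UMIs in the virgin cells of the class. Without the cells that had a UMI of the list, 131 parous and 81 virgin cells were left. This removal was not matched for depth, and whether the removed cells held macrophage RNA was not tested. Among the cells left the Lgals3 levels were 144 CPM in parous and 192 CPM in virgin cells. Its log2 ratio was -0.41 (-0.90 to 0.07), with an interval that holds 0. Anxa1 kept a ratio of -1.57 (-2.18 to -1.02) and Ahnak of -0.81 (-1.06 to -0.57), while S100a10 (0.10) and S100a11 (0.08) had ratios above 0. Lgals1 (-0.27), Anxa2 (-0.50) and Vim (-0.50) then lay within 1.5-fold, so that 2 of 10 genes were at least 1.5-fold lower. At a clustering resolution of 1.2 (280 parous and 128 virgin cells) 8 of 10 were. The class then also held a cluster led by Car2 and Itgae, with 142 parous and 6 virgin cells. The share over all genes is not given for these alternatives.

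Ly49 and Helios positive cells (329 parous and 179 virgin), marked by Klra genes and Ikzf2, had 3 of the 10 genes 1.5-fold higher or more in the parous library, where 6.75% of 9981 genes were. None was 1.5-fold lower, where 18% of all genes were. S100a4 was at 309.8 CPM (286 to 335) in parous cells and 142 CPM (125 to 160.2) in virgin cells, a log2 ratio of 1.13 (0.92 to 1.34). S100a6 was at 1455 CPM in parous and 895 CPM in virgin cells, a log2 ratio of 0.70 (0.61 to 0.79), and was found in 67.1% of its parous cells and 42.5% of its virgin cells at matched depth. Lgals3 was at 47.1 CPM (38.2 to 57.5) in parous cells and 12.6 CPM (8.01 to 19) in virgin cells, from 97 and 23 UMIs. The other 7 genes lay within 1.5-fold. Of these Ahnak (-0.33 (-0.49 to -0.18)), Anxa2 (-0.18 (-0.31 to -0.04)) and Vim (-0.13 (-0.23 to -0.03)) had negative log2 ratios with intervals that leave out 0, and the median over the 10 genes was 0.04. Lgals1 was at 800.2 and 835 CPM, Vim at 856 and 937 CPM and Anxa1 at 26.2 and 26.4 CPM in parous and virgin cells.

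**Figure D3:**
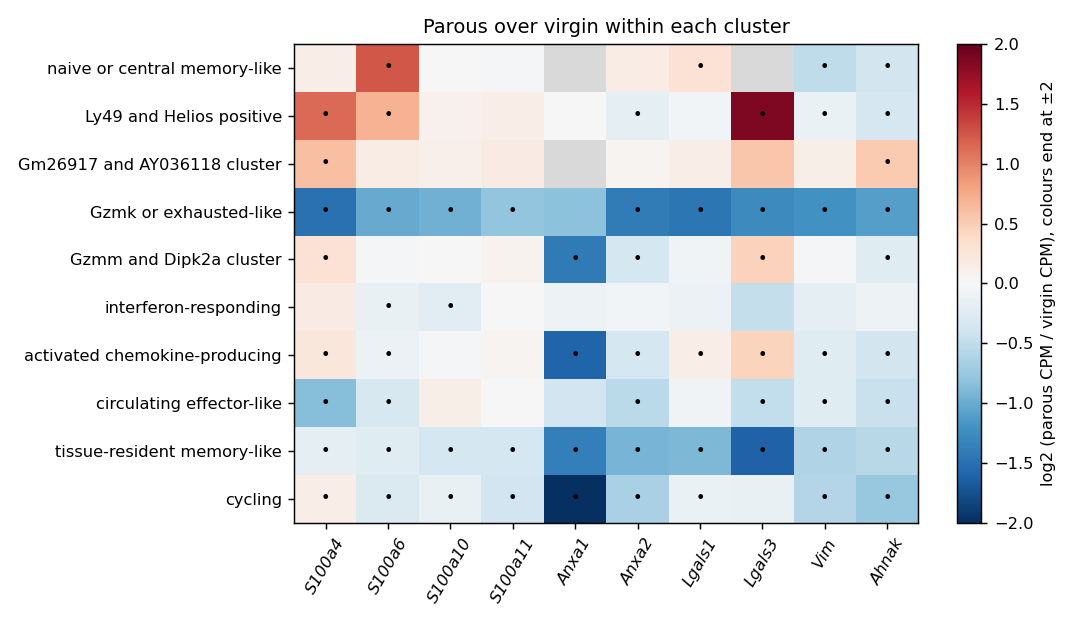
Log2 ratio of parous over virgin CPM for each gene and each cluster with at least 30 cells in both libraries, red where the parous level is higher, a dot where the exact 95% counting interval leaves out 0, and grey under 10 UMIs. The Gzmk or exhausted-like row is blue throughout (S100a4 -1.49), the Ly49 and Helios positive row is red for S100a4, S100a6 and Lgals3, and the Anxa1 column is blue in several rows.

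Anxa1 was lower in parous cells of several classes. In cycling cells (69 parous and 142 virgin) it was at 26.4 CPM (15.1 to 42.9) in parous cells and 158 CPM (144 to 174) in virgin cells, a log2 ratio of -2.54 (-3.40 to -1.87). In activated chemokine-producing cells (241 parous and 514 virgin) it was at 19.4 CPM in parous and 60.2 CPM in virgin cells, a log2 ratio of -1.60 (-2.44 to -0.92). In the cluster led by Gzmm and Dipk2a, which took no cell type name (633 parous and 172 virgin), it was at 26.2 CPM in parous and 69.7 CPM in virgin cells, a log2 ratio of -1.41 (-1.86 to -0.96). In Ly49 and Helios positive cells (log2 ratio -0.01 (-0.60 to 0.58)), circulating effector-like cells (-0.38 (-1.32 to 0.38)) and interferon-responding cells (-0.10 (-1.98 to 1.29)) the interval of Anxa1 held 0. Whether the gap differs between classes was not tested. Anxa1 was the 1 of 10 genes at least 1.5-fold lower in the activated cells and in the Gzmm and Dipk2a cluster, where 20% and 17.8% of all genes were.

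In cycling cells 4 of 10 genes (Anxa1, Anxa2, Vim and Ahnak) were 1.5-fold lower or more in parous cells, where 20.7% of 9925 genes were. Ahnak was at 274 CPM in parous and 466 CPM in virgin cells, a log2 ratio of -0.76 (-1.01 to -0.53), and Vim at 1639.5 CPM in parous and 2475 CPM in virgin cells. S100a4, at 1809.8 CPM in parous and 1655 CPM in virgin cells, was slightly higher in the parous cells, with a log2 ratio of 0.13 (0.03 to 0.22). In circulating effector-like cells (76 parous and 160 virgin) S100a4 was the 1 of 10 genes at least 1.5-fold lower, at 515 CPM in parous and 931 CPM in virgin cells, where 21.7% of 8340 genes were. Among interferon-responding cells (50 parous and 87 virgin) none of the 10 genes passed 1.5-fold in either direction. There 13.4% of 7153 genes were higher and 23.9% lower. The cluster led by Gm26917 and AY036118, which took no cell type name (167 parous and 55 virgin cells), had the lowest depth, at a median of 1310 UMIs in parous and 3042 UMIs in virgin cells. There S100a4 was at 377 CPM in parous and 246 CPM in virgin cells, a log2 ratio of 0.61 (0.13 to 1.11), and the other 9 genes lay within 1.5-fold, Anxa1 on 3 UMIs in each library. In that cluster 30.5% of 5273 genes were at least 1.5-fold higher and 14.4% lower.

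The 2 galectin genes parted in a cluster found almost entirely in the parous library (311 parous and 2 virgin cells). Its leading genes were Fcer1g, Gzmc and Tyrobp. Fcer1g, Tyrobp and Cd7, all among its 10 leading genes, are on the marker list of natural killer or innate-like T cells. The cluster met 9 of the tissue-resident memory markers, among them Itgae, Itga1, Cxcr6 and Zfp683. None of those 9 was among its 10 leading genes, and it took no cell type name. The gamma-delta T cell list summed to 436 CPM in its parous cells, above every other CD8 T cell cluster. The macrophage or dendritic list summed to 144 CPM and the mammary epithelial list to 76.8 CPM, each above every other parous CD8 T cell cluster. The part of such RNA in the values of this cluster was not tested. Since the cluster is mostly of 1 library, a cell type and an effect of that library cannot be told apart. Lgals1 was at 199.8 CPM (176 to 226) in its parous cells, found in 14.4% of them. This lay close to the 139 CPM and 15.3% of parous naive-like cells, and below every other CD8 T cell cluster of the parous library, which had at least 713 CPM. Lgals3 was instead at 229 CPM (204 to 257), found in 23.6% of cells, against 2.6 CPM in parous naive-like cells. Anxa2 was at 432 CPM, S100a6 at 1844 CPM and S100a4 at 284 CPM in the same cells. The cluster held 19.3% of the parous Lgals3 UMIs but 1.98% of the parous Lgals1 UMIs, and 10.4% of the parous CD8 T cells.

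**Figure D4:**
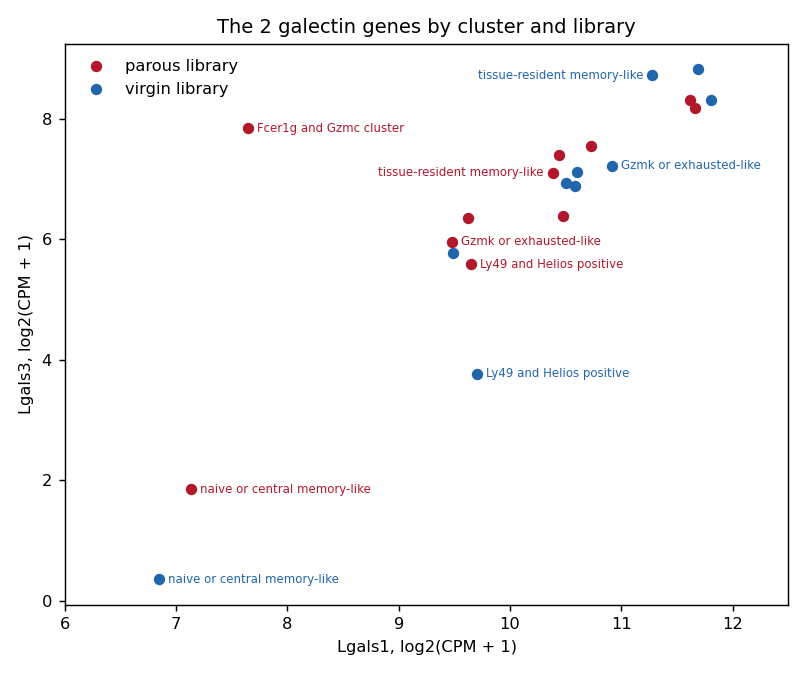
Level of Lgals1 against that of Lgals3, both as log2(CPM + 1), with 1 point per cluster and library for the 21 with at least 30 cells. The parous Fcer1g and Gzmc cluster stands apart at the upper left, with 199.8 CPM of Lgals1 and 229 CPM of Lgals3.

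At 1400 UMIs per cell, a cell of either library carried a median of 4 of the 10 genes, but the spread differed. None of the 10 was found in 6.49% of the parous cells and 10.4% of the virgin cells, and 7 or more were found in 12.4% and 19.5%. Naive-like cells carried a median of 1 in both libraries, and 0 of them carried 7 or more. In cycling cells 7 or more were seen in 40.6% of parous ones and 64.5% of virgin ones, and in tissue-resident memory-like cells in 29.1% and 57.1%. In Gzmk or exhausted-like cells the median was 4 in parous and 6 in virgin cells.

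**Figure D5:**
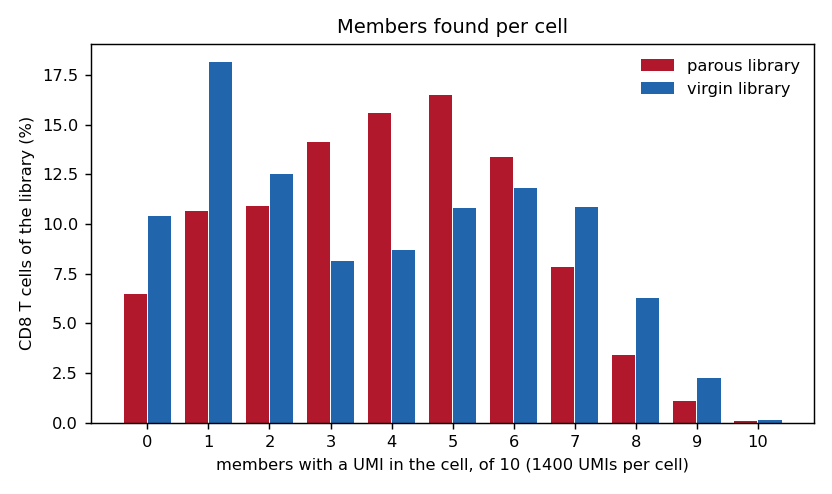
Share of CD8 T cells of each library, in percent, by the number of the 10 genes with a UMI after thinning each cell to 1400 UMIs (2865 parous and 2485 virgin cells). The virgin library has a peak at 1 gene (18.1%) and more cells at 7 and above, while the parous library has its peak at 5 (16.5%).

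Genes found in the same cell were followed as pairs. Among parous cells with an S100a4 UMI, 86.2% had one of S100a6, against 52.4% of those without, and in the virgin library the shares were 91.2% and 28.5%. Across all CD8 T cells the Spearman correlation over the 45 pairs had a median of 0.17 among parous cells and 0.30 among virgin cells. Within the naive-like class the medians were 0.02 and 0.01, and within tissue-resident memory-like cells 0.10 and 0.09. These describe cells that share a library, and in counts this sparse such weak values are no finding.

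Over the 21 cluster and library units, S100a4 was most like S100a6 (Pearson r = 0.96 of log2(CPM + 1)), the neighbour on chromosome 3. Anxa2 was most like S100a6 (0.95), S100a10 and Lgals1 were most like each other (0.93), and Vim was most like Lgals1 (0.93). S100a11 (0.93) and Lgals3 (0.92) were most like S100a4, Ahnak was most like S100a6 (0.89), and Anxa1 was most like Vim (0.88). Anxa2 and its partner S100a10 correlated at 0.75, the lowest value of Anxa2 with any of the 10. Without the naive-like units (19 units left) 44 of the 45 correlations were lower and their median was 0.61 in place of 0.85. S100a4 with S100a6 was then at 0.91, and S100a6 with Anxa2 at 0.50. Anxa2 with S100a10 was at 0.49 and no longer the lowest value of Anxa2, which was that with Lgals3 (0.43). Units of a library share its depth and preparation, so the correlations are a description. Among 5335 other genes of at least 20 CPM, those most like the mean of the 10 were Itgb1, the integrin beta 1 chain (0.95), Atf6, a transcription factor of the unfolded protein response (0.94), Ifng, interferon gamma (0.94), Unc119 (0.93) and Ptms (0.93). Least like it were Patj (-0.86), Cox7a2l (-0.85), Rab3ip (-0.84), Gas5 (-0.84) and the elongation factor Eef1a1 (-0.83). This ranking includes the naive-like units, where the mean standardised level was lowest, at -2.45 in parous and -2.50 in virgin cells. No ranking without those units is given.

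Of 31 further genes of the 3 families, 14 had at least 10 UMIs over all CD8 T cells. At 1.5-fold, 3 of the 14 were higher in parous cells and 1 was lower, beside 8.53% and 16.8% of all genes, and their median log2 ratio was -0.02. S100a1 was at 5.43 CPM in parous cells and 2.31 CPM in virgin cells, from 72 and 46 UMIs, and Lgalsl, a galectin-related gene, at 10.5 CPM in parous cells and 5.27 CPM in virgin cells. Anxa4, another membrane-binding annexin, was at 4.9 CPM in parous cells and 7.58 CPM in virgin cells, and the third higher gene had 11 and 9 UMIs. The better measured relatives lay within 1.5-fold, such as S100a13 (249 CPM in parous cells and 228 CPM in virgin cells), Anxa6 (268 CPM in parous cells and 366 CPM in virgin cells) and Lgals9 (146 CPM in parous cells and 138 CPM in virgin cells).

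Of 16 genes for binding partners of these proteins, 12 were measured. Parous cells had 2 of them 1.5-fold higher or more and 0 of them 1.5-fold lower, beside 8.53% and 16.8% of all genes. Cd7, a surface glycoprotein that galectin-1 binds on T cells in humans, was at 863 CPM in parous cells and 199 CPM in virgin cells, a log2 ratio of 2.12 (2.07 to 2.17). Cd7 was among the leading genes of the Fcer1g and Gzmc cluster, which held 57.7% of the parous Cd7 UMIs, and without that cluster Cd7 was at 405 CPM in parous cells and 197 CPM in virgin cells, a log2 ratio of 1.04 (0.98 to 1.10). Mgat5, the glycosyltransferase that makes branched sugar chains bound by galectin-3, was at 59.5 CPM in parous cells and 35.1 CPM in virgin cells. Myh9, the myosin heavy chain that S100A4 binds, was at 405 CPM in parous cells and 512 CPM in virgin cells, and Cacybp, the S100A6 partner, at 76.7 CPM in parous cells and 97.3 CPM in virgin cells. All 22 cytoskeleton and memory-linked genes were measured, with 1 higher and 1 lower at 1.5-fold and a median log2 ratio of -0.25, beside 8.53%, 16.8% and a median of -0.15 over all genes. Capg, an actin-capping protein, was at 53.5 CPM in parous cells and 33.7 CPM in virgin cells, and Msn (moesin, which links actin to the membrane) at 331 CPM in parous cells and 507 CPM in virgin cells. Crip1, often high in memory T cells, was at 1803 CPM in parous cells and 2030.1 CPM in virgin cells.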

How the data were processed

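Each group had 1 pooled 5' library, deposited as raw UMI counts by gene and barcode. Per the file headers Cell Ranger 7.0.0 made them, and per the submitters' processing notes the build was mm10. Those notes list R 4.4.2 and Seurat too, with no role. How barcodes were called as cells is not given in the sources used here. Cells needed at least 500 genes, 1000 UMIs and under 10% mitochondrial UMIs, which left out 1908 parous and 15 virgin barcodes. Scrublet marked 2 parous and 11 virgin cells, under 0.5%, and was taken not to have worked, so doublets were kept. For clustering, virgin UMIs were thinned to 58.7% and 2000 variable genes, 30 components, 15 neighbours and Leiden resolution 0.8 were used (scanpy 1.11.5, leidenalg 0.10.2), without the 10 genes, their families and mitochondrial, ribosomal, immunoglobulin and T cell receptor genes. A name needed at least 3 markers at least 2-fold above other cells and found in at least 10% of the cluster. For a T cell name, the list with the most such markers also needed a marker among the 10 leading genes. No other list could have more markers there. Clusters of other cells (30 parous and 12 virgin cells) were left out. Counts were summed per library and class and divided to CPM, with 0.5 added for ratios. Ratio intervals are exact conditional intervals of 2 Poisson counts, level intervals are exact Poisson and share intervals Clopper-Pearson. The floor is 3 counts. The code was tested on simulated counts. No test between groups was possible with 1 library each. Named were all 10 genes, up to 6 genes per list at least 1.5-fold apart with 30 UMIs in 1 library, and the 5 genes most and least like the 10. S100a13, Anxa6, Lgals9, Myh9, Cacybp, Crip1, Fpr1, Fpr2, S100a5, S100a8, S100a9, Cdh1, Car2, Itgae, Pdcd1, Gzmk and the macrophage markers were named after their values were seen. The 10 genes, the lists and several alternatives were chosen with earlier results of these data known. Alternatives varied the depth, scaling, cell weights, cell filter, resolution, clustered genes and cells compared. A gate of naive-like cells without clustering is not reported here. Software was pandas 2.3.3, scipy 1.17.1, numpy 2.4.6 and Python 3.11.15.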

Additional observations from a re-analysis of the deposited data

Results flagged for a closer look

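Within classes, 3 of the 10 genes had gaps in opposite directions, each at least 1.5-fold and with counting intervals that leave out 0. The share of all genes that meet this rule is not given, so the count is a description only. At 1.5-fold, 6.75% of all genes were higher in Ly49 and Helios positive cells and 5.98% in naive or central memory-like cells. At 1.5-fold, 23.6% were lower in Gzmk or exhausted-like cells and 21.8% in tissue-resident memory-like cells. The difference between the classes was not tested, since each class has 1 parous and 1 virgin library. S100a4 had a log2 ratio of parous over virgin of 1.13 in Ly49 and Helios positive cells and of -1.49 in Gzmk or exhausted-like cells. S100a6 had 1.24 in naive or central memory-like cells, from 88 parous and 117 virgin UMIs, and -1.01 in Gzmk or exhausted-like cells. Lgals3 had 1.87 in Ly49 and Helios positive cells and -1.61 in tissue-resident memory-like cells, where it was -0.41 (-0.90 to 0.07) without the cells that had a macrophage or dendritic UMI.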

How the results depend on the processing

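The counts of 0 genes higher and 1 gene lower over all CD8 T cells were the same under every alternative run for them, and Anxa1 was the lower gene. The median log2 ratio over all CD8 T cells (-0.27) was -0.13 with median-of-ratios scaling, -0.10 as a mean of per-cell CPM, -0.11 with each cell thinned to 1400 UMIs and -0.041 without the cycling class. For naive or central memory-like cells the median over 8 genes (0.071) was -0.073 with the 10 genes and families kept in clustering, 0.43 at resolution 1.2 and 0.19 with median-of-ratios scaling, so it has no stable sign. At parous instead of virgin cluster shares the median was -0.33. The median log2 ratio of shares (0.043) was -0.11 without thinning. The median number of genes per cell was 3 in both libraries at 1000 UMIs, and 5 in the parous library at 2000 UMIs. Values given above with and without the naive-like units or the Fcer1g and Gzmc cluster were also added after seeing the data. In Gzmk or exhausted-like cells the median (-1.16) was -0.60 at resolution 0.5, -0.75 with the 10 genes kept in clustering and -0.81 without Cdh1, Car2 or Itgae cells. In tissue-resident memory-like cells (-0.58) it was -1.08 at resolution 1.2 and -0.34 without cells with macrophage or dendritic UMIs. At resolution 1.2 that class also held a cluster led by Car2 and Itgae, with 142 parous and 6 virgin cells. Outside the naive class (-0.60) it was -0.49 with thinning. Of 70 single-gene values over all CD8 T cells, 27 stayed within their counting interval. These class alternatives and the one without the cluster led by Gm26917 and AY036118 were chosen after seeing the data. The causes of these shifts were not tested. No paired analysis was possible because each group is 1 library and the labels carry no replicate numbers. No library can be left out.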
